A study of Apis mellifera with 18 samples.

Results

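Transcripts of the mouthparts of honey bees (Apis mellifera) were compared with those of the tissue that the labels call tentacles, in bees of the control group without pollen. The comparison holds 6 of the 18 libraries of the series, 3 from mouthparts and 3 from tentacles, chosen by their labels alone and fitted without the other libraries. Of 17545 genes in the deposited table, 12749 had enough counts to be tested, and 4796 were left out by the filter on low counts. The series studied pollen preference in Italian honey bees and sampled both tissues in controls given no pollen and in collection groups with pear pollen or Olea europaea pollen, as 3 libraries per tissue and group. The libraries labelled with Olea europaea pollen entered only an alternative fit over all 18 libraries, and for 3 of them the title and the genotype entry disagree on the pollen. Total RNA was used throughout, at 1.3 ug per library. The labels do not give the age or caste of the bees, the number of bees behind a library, or which pieces of the head were cut away with the mouthparts or with the tentacles. They also do not say whether the 3 libraries of a group came from separate bees, so a p-value here rests on library-to-library spread, which may be technical only. The genotype entry carries the pollen group and no allele.

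Tentacles is the submitters' word, and the labels do not say which organ it stands for. Bees smell mainly with the antennae, where sensory neurons send a cilium into a hair and carry odorant receptors in its membrane. Odorant binding proteins, made by support cells, carry odours through the fluid of the hair, and esterases, cytochrome P450s and glucuronosyltransferases are thought to clear them. The mouthparts (mandibles, maxillae and labium) are muscular, heavily sclerotized feeding limbs with taste hairs, and the glands of the head, which make royal jelly proteins and sugar-cleaving enzymes, open near them. Which appendage a head segment makes is set in insects by Hox genes, transcription factors with a homeobox.

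Library totals were 39.6, 41.4 and 30.5 M (1e6 counts) in tentacles and 29.3, 28.95 and 27.8 M in mouthparts. The first principal component held 89.2% of the variance and separated the tissues, and the second, with 3.53%, set mouthparts replicate 2 apart from the other 2 mouthparts libraries. Levels are given as counts per 1e6 counts (CPM) after TMM scaling, which corrects for a few genes taking up much of a library. A gene was called when the p of edgeR's quasi-likelihood test, adjusted by Benjamini-Hochberg over all tested genes, was under 0.05. Log2 differences are mouthparts minus tentacles, with their standard errors.

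The tissues differed in most genes that could be tested. In all, 8648 genes were called, which is 67.8% of those tested, with 4121 (32.3%) higher and 4527 (35.5%) lower in mouthparts. At least 2-fold, 1698 genes (13.3%) were higher and 2368 (18.6%) lower. The 3 libraries of one tissue all lay above the 3 of the other in 9337 genes (73.2%). The median log2 difference over all tested genes was -0.04. Scaling by total counts alone moved this median to -0.39 and turned the calls to 2421 higher and 6864 lower. A small difference is therefore relative to the scaling, and a list is read below against the -0.04 and the percentages of all tested genes. In whole tissue, fewer cells of a type and less RNA per cell cannot be told apart.

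**Figure D1:**
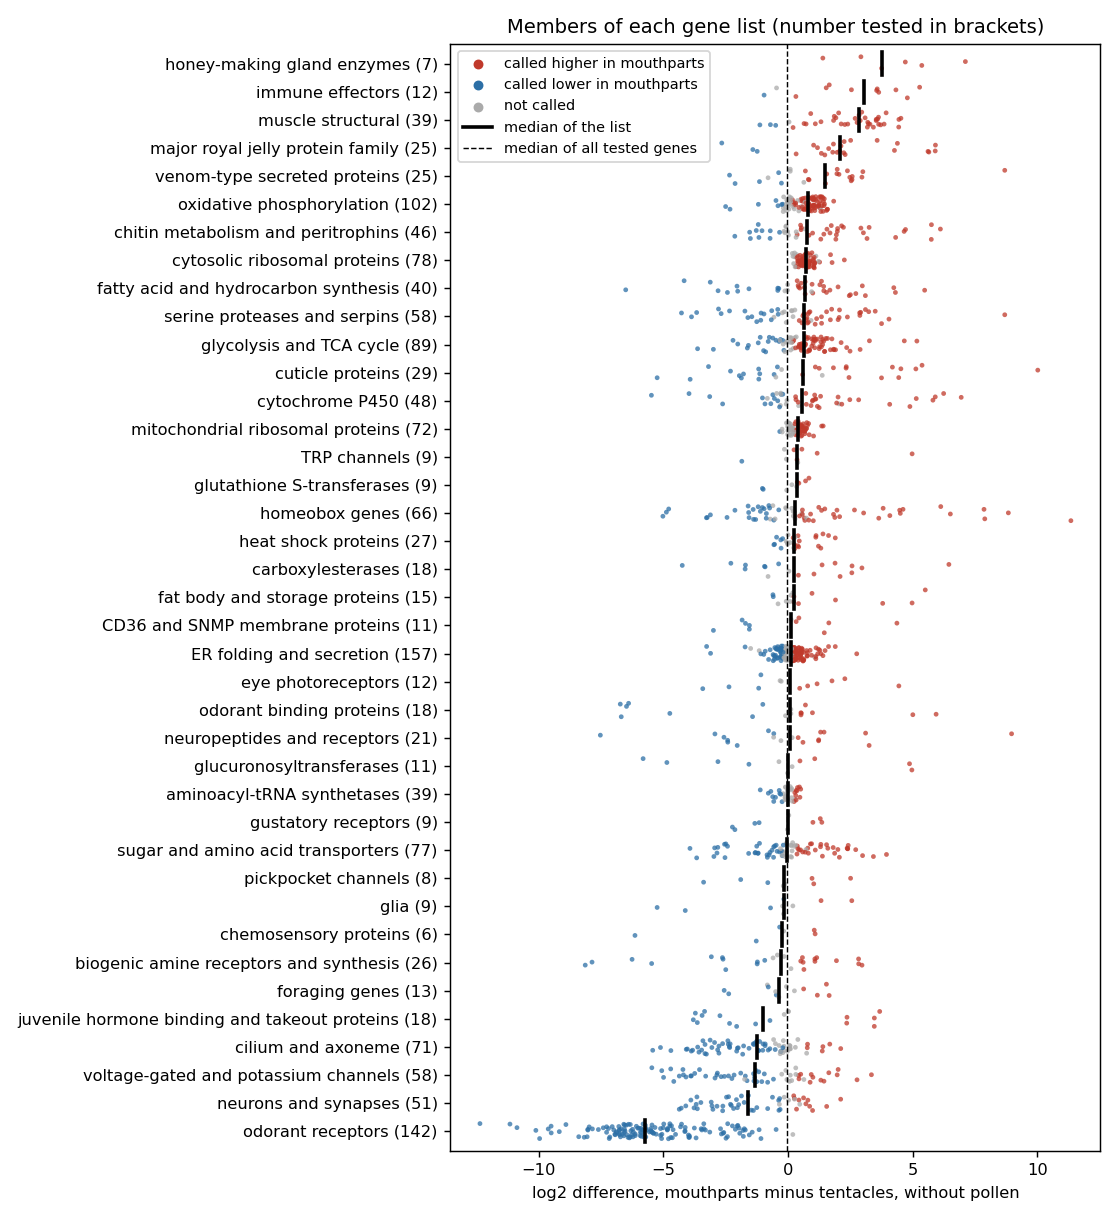
Log2 difference (mouthparts minus tentacles, without pollen, horizontal axis) of every tested member of 39 gene lists (rows, ordered by their median, with the number tested in brackets). Points are genes, coloured by call, black bars are the list medians, and the dashed line is the median of all tested genes. Genes with no count in 1 tissue are drawn at a fitted value that depends on the prior count. Odorant receptors have the lowest median, -5.75, and the gland enzymes the highest, 3.75.

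Odorant receptors were almost all lower in mouthparts. Of the 144 in the table, 142 were tested, 141 were called lower, 0 higher and 1 was not called, where 35.5% of all tested genes were called lower. At an unadjusted p under 0.05, edgeR called 0 higher, and DESeq2 called 0 higher. The median log2 difference was -5.75. Summed over the list, the level was 87.2 to 101 CPM in mouthparts libraries and at least 2190 CPM in every tentacles library. Odorant receptors are defining genes of antennae, and their levels mark the tissue labelled tentacles as rich in olfactory RNA. The receptors took 0.265 ± 0.0174% (SD, n = 3) of the counts in tentacles and 0.00845 ± 0.000663% (n = 3) in mouthparts.

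Or2, the receptor that pairs with all other odorant receptors to form the ion channel (it corresponds to Orco of other insects), was the receptor with the most counts. Or2 (GB40730) stood at 5.23, 5.03 and 2.69 CPM in the mouthparts libraries and at 441.5, 371 and 442 CPM in the tentacles libraries. The log2 difference was -6.59 ± 0.21 (edgeR adjusted p = 1.4e-08). GB40666 and GB48703, odorant receptors by their protein family and without a closer name, followed the same order. GB48703 was at 1.15, 1.18 and 0.979 CPM in mouthparts and 110, 93.7 and 118 CPM in tentacles, a log2 difference of -6.59 ± 0.14 (edgeR adjusted p = 6.9e-12). GB40666 was at 0.807, 0.354 and 0.286 CPM in mouthparts and 72.6, 82.7 and 73.4 CPM in tentacles (-7.28 ± 0.20, edgeR adjusted p = 8.5e-11). Without mouthparts replicate 1, its highest mouthparts library, the log2 difference was -7.88.

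A further 15 receptors had no count in any mouthparts library. Of these, GB47121, named from the odorant receptor 49b-like entry, was at 16.9, 21.3 and 20.3 CPM in tentacles. Against a floor of 3 counts over the mouthparts group, that is at least 491-fold higher in tentacles. The bound was at least 209-fold for GB52404 and at least 175-fold for GB52402, both also odorant receptors. Over the 142 tested receptors, the level in mouthparts was a median of 1.79% of that in tentacles, with quartiles of 0.918% and 5.71%.

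In 16 of the 142 receptors the mouthparts level was at least 20% of the tentacle level, a limit chosen after the values had been seen, as were the 3 receptors named next. GB50055, named from odorant receptor 82a, was at 15.2, 15.9 and 12.9 CPM in mouthparts and 20.2, 17.5 and 23.8 CPM in tentacles. The groups came close without overlapping, with a log2 difference of -0.48 ± 0.14 (edgeR adjusted p = 0.0079). GB40197, named from odorant receptor 49b-like, was at 11.2, 10.6 and 10.04 CPM in mouthparts and 22.6, 20.5 and 24.7 CPM in tentacles (-1.09 ± 0.11, edgeR adjusted p = 5e-06). These were the only 2 receptors with at least 10 CPM in mouthparts, against 58 in tentacles. The receptor that was not called, GB51075, was low in both tissues, at 1.65 CPM in mouthparts and 1.45 CPM in tentacles (log2 difference 0.19 ± 0.27, edgeR adjusted p = 0.56). Several of these receptors are close copies of each other, so reads may have been split among them.

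Ionotropic receptors are an older family of odour and humidity receptors related to glutamate receptors. The 3 gene models found for them in the deposited annotation were all lower in mouthparts. Over all tested genes 35.5% were called lower. The co-receptor IR25a (GB47387) was at 7.65, 10.3 and 9.43 CPM in mouthparts and 32.3, 35.7 and 34.3 CPM in tentacles (log2 difference -1.90 ± 0.12, edgeR adjusted p = 5.9e-08). All 3 mouthparts libraries lay below all 3 tentacles libraries. A pair of gene models shares the best hit IR93a, a receptor needed for sensing temperature and humidity in Drosophila. The 3 models may therefore not be 3 genes. GB50521 had a log2 difference of -2.34 ± 0.21 and GB42136 one of -2.60 ± 0.29 (edgeR adjusted p = 1.6e-06 and 7.9e-06).

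Gustatory receptors, which bind sugars and other tastants, were called in both directions. Of 15 in the table only 9 were tested, with 3 (33.3%) higher, 4 (44.4%) lower and 2 not called. These shares are near the 32.3% and 35.5% of all tested genes. The sugar receptor Gr43a (GB40382), a fructose receptor in Drosophila, was the most highly counted at 33.9, 35.8 and 35.7 CPM in mouthparts and 35.5, 34.0 and 37.8 CPM in tentacles. The groups overlapped, and the log2 difference was -0.02 ± 0.08 (edgeR adjusted p = 0.8). With total counts it was called lower, by -0.38 (edgeR adjusted p = 0.0015). Both receptors named Gr64f, which take part in sugar taste in Drosophila, were lower in mouthparts, GB41360 by a log2 difference of -1.16 ± 0.18 and GB44499 by -1.34 ± 0.19 (edgeR adjusted p = 0.00012 and 6.5e-05). Higher in mouthparts was GB53327, named from the pheromone receptor 32a, at 6.999, 4.755 and 4.489 CPM against 2.103, 2.248 and 2 CPM in tentacles (1.35 ± 0.20, edgeR adjusted p = 8.7e-05). Gr10 (GB44013) was higher by a log2 difference of 1.29 ± 0.34 (edgeR adjusted p = 0.0059), at 1.18 to 2.52 CPM in mouthparts and 0.477 to 0.912 CPM in tentacles. Apart from Gr43a, the 9 tested receptors were all under 10 CPM in both tissues.

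Odorant binding proteins fell into distinct sets, and their list median of 0.06 hides this. Of 20 in the table, 18 were tested, with 7 (38.9%) higher, 7 (38.9%) lower and 4 not called. Over all tested genes 32.3% were higher and 35.5% lower. All 7 lower members were lower at least 2-fold, and 2 of the 7 higher ones were higher at least 2-fold. Scaling by total counts gave 5 higher and 8 lower, with a median of -0.30.

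The most abundant members belonged to the tentacles. GB55593, of the PBP/GOBP family, was at 17440, 21080 and 19890 CPM in tentacles and 211, 201 and 152 CPM in mouthparts. Per length, its level in tentacles was 28380 ± 2182 FPKM (fragments per kilobase and 1e6 fragments, mean ± SD, n = 3), the highest among called genes with a name in that tissue. GB53369 was at 9030, 10900 and 10600 CPM in tentacles and 108, 102 and 76.6 CPM in mouthparts, and GB53368 was at 4781, 5616 and 5444 CPM in tentacles and 67.8, 64.5 and 44.8 CPM in mouthparts. Their log2 differences were -6.69 ± 0.16, -6.73 ± 0.16 and -6.48 ± 0.18 (edgeR adjusted p = 2.4e-11, 3e-11 and 1.5e-10). In mouthparts the 3 genes were at 0.966%, 0.94% and 1.12% of their tentacle level, and the fold of Or2 between the tissues was 96.4.

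Levels of these tentacle genes in mouthparts were lower in the libraries with pear pollen. Scaled together over the 12 libraries without pollen and with pear pollen, GB53369 was at 98.0 ± 16.9 CPM in mouthparts without pollen and 3.13 ± 0.53 CPM in mouthparts with pear pollen (SD, n = 3 each). Or2 was at 4.42 ± 1.43 CPM without pollen and had no count in the mouthparts libraries with pear pollen. In tentacles it was at 423 ± 39.4 CPM without pollen and 577 ± 3.86 CPM with pear pollen. The part of tentacle material in the mouthparts libraries without pollen was not tested.

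Other odorant binding proteins marked the mouthparts. GB53371 was at 412, 380 and 399 CPM in mouthparts and 6.53, 5.12 and 7.97 CPM in tentacles, a 61.2-fold difference (log2 5.93 ± 0.14, edgeR adjusted p = 3.8e-11). GB46223 was at 61.8, 54.6 and 62.9 CPM in mouthparts and 1.56, 1.92 and 2.15 CPM in tentacles (5.001 ± 0.13, edgeR adjusted p = 3.1e-11). GB46225 was alike in both tissues, with 2458, 2526 and 2587 CPM in mouthparts and 2512, 2250 and 2725 CPM in tentacles (0.02 ± 0.09, edgeR adjusted p = 0.88).

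**Figure D2:**
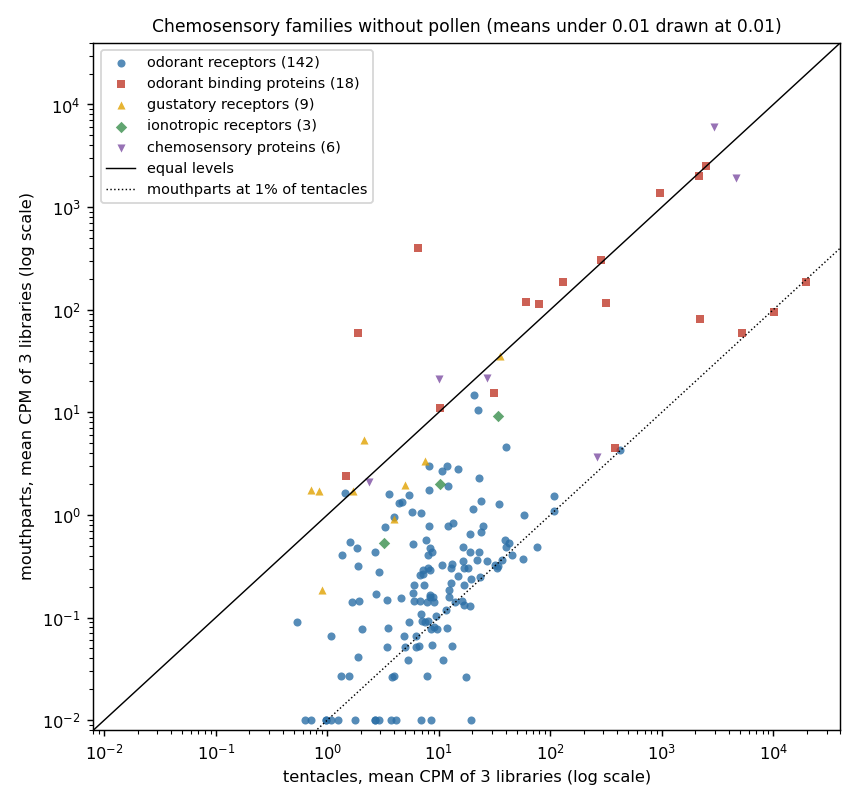
Mean CPM in mouthparts (vertical) against mean CPM in tentacles (horizontal), without pollen, both on log scales, for the tested members of 5 chemosensory families. The solid line marks equal levels and the dotted line a mouthparts level of 1% of the tentacle level. All odorant receptors but GB51075 lie below the solid line, and the odorant binding proteins GB55593, GB53369, GB53368 and GB50937 lie near the dotted one.

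Chemosensory proteins are small soluble proteins that bind fatty compounds in many tissues. All 6 in the table were tested, with 2 higher, 3 lower and 1 not called. GB52324 was at 6106, 6067 and 5970 CPM in mouthparts and 2614, 3384 and 2780 CPM in tentacles (log2 difference 1.05 ± 0.10, edgeR adjusted p = 2.6e-06). GB43823 went the other way, with 1813, 1833 and 2092 CPM in mouthparts and 4705, 5154 and 4065 CPM in tentacles (-1.28 ± 0.10, edgeR adjusted p = 5e-07). GB52326 was nearly confined to the tentacles libraries, with 238, 288 and 258 CPM there and 3.96, 4.28 and 2.82 CPM in mouthparts. The family as a whole made up 0.707 ± 0.0088% of mouthparts counts and 0.89 ± 0.0987% of tentacle counts (SD, n = 3 each).

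Lipid carriers and their membrane partners were also divided. Of 4 Niemann-Pick C2 proteins, which bind sterols and other lipids, 3 were higher and 1 lower. GB41545, an MD-2-related lipid-recognition protein, was at 237, 213 and 229 CPM in mouthparts and 4.86, 5.53 and 5.94 CPM in tentacles (log2 difference 5.38 ± 0.10, edgeR adjusted p = 3.4e-12). GB42887 was at 198, 198 and 192 CPM in mouthparts and 1964, 1859 and 2085 CPM in tentacles (-3.33 ± 0.08, edgeR adjusted p = 1.6e-11). Sensory neuron membrane protein 1 (GB48343), a CD36 protein that takes part in pheromone sensing in Drosophila, was at 290, 305 and 281 CPM in mouthparts and 1001, 1057 and 1088 CPM in tentacles (-1.85 ± 0.07, edgeR adjusted p = 6.9e-10). The protein named sensory neuron membrane protein 2 (GB50454) was higher in mouthparts (1.63 ± 0.09, edgeR adjusted p = 1.6e-08). Among 11 tested members of the CD36 family, 5 (45.5%) were higher and 5 (45.5%) lower, against 32.3% and 35.5% of all tested genes. Scaling by total counts turned the 5 and 5 to 3 and 6.

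Juvenile hormone binding and takeout proteins, secreted carriers of small fatty ligands, leaned to tentacles with 10 lower, 5 higher and 3 not called of 18 tested (median -1.02). GB42557 went against this, at 188, 179 and 178 CPM in mouthparts and 13.9, 12.9 and 16.03 CPM in tentacles (log2 difference 3.67 ± 0.09, edgeR adjusted p = 2e-11). GB42556 and GB48492 were higher in mouthparts by a log2 difference of 3.46 each. Among the lower members GB42796 was at 1.31, 0.55 and 1.26 CPM in mouthparts and 14.9, 14.7 and 14.1 CPM in tentacles. GB42800 was at 273, 280 and 272 CPM in mouthparts and 282, 226 and 318 CPM in tentacles, and the groups overlapped (edgeR adjusted p = 0.99). With total counts it was called lower, by -0.36 (edgeR adjusted p = 0.011).

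Enzymes that break down odours, drugs and toxins were abundant in tentacles through a few members. Esterase FE4 (GB55921), a carboxylesterase, was at 24390, 26740 and 26650 CPM in tentacles and 1445, 1414 and 1239 CPM in mouthparts, a 19.0-fold difference (edgeR adjusted p = 2.2e-11). CYP6AQ1 (GB52023), a cytochrome P450, was at 13260, 15460 and 14530 CPM in tentacles and 313, 343 and 311 CPM in mouthparts (log2 difference -5.48 ± 0.11, edgeR adjusted p = 5.6e-12). The P450 named 6k1 (GB46814) was at 6882, 6883 and 7047 CPM in tentacles and 439, 468 and 416 CPM in mouthparts. The glucuronosyltransferases GB47302 and GB54485, which attach sugars to make compounds soluble, were lower in mouthparts by log2 differences of -5.82 ± 0.10 and -4.86 ± 0.09 (edgeR adjusted p = 3e-12 and 4.8e-12).

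By number of genes, these enzyme families were not lower. Of 48 tested P450s 26 were higher in mouthparts and 13 lower, with a median of 0.56, although their summed share of counts was 1.68 ± 0.00902% in mouthparts and 3.6 ± 0.0825% in tentacles (SD, n = 3 each). Scaling by total counts gave 22 higher and 20 lower. The P450 named 4aa1-like (GB49626) was at 354, 307 and 249 CPM in mouthparts and 2.52, 2.66 and 2.18 CPM in tentacles (log2 difference 6.94 ± 0.16, edgeR adjusted p = 3.9e-11). Of 18 tested carboxylesterases 9 were higher and 7 lower, 8 and 8 with total counts. Esterase A2 (GB43571) was the one most in favour of mouthparts, with 1400, 1292 and 1603 CPM there and 14.4, 17.6 and 17.3 CPM in tentacles (6.45 ± 0.13, edgeR adjusted p = 5.9e-12). The glucuronosyltransferases GB44058 and GB54460 were higher in mouthparts by log2 differences of 4.96 ± 0.10 and 4.87 ± 0.11. Of 9 tested glutathione transferases 4 were higher and 2 lower, none of the higher ones by 2-fold.

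Genes of the cilium, the neuron and the synapse were lower in mouthparts. Of 71 tested cilium and axoneme genes 48 were lower and 6 higher (median -1.26). Radial spoke head protein 3 (GB51084), a part of the motile axoneme, was at 2.35, 1.65 and 2.04 CPM in mouthparts and 80.1, 93.6 and 87.4 CPM in tentacles (log2 difference -5.43 ± 0.13, edgeR adjusted p = 1.6e-11). The intraflagellar transport gene named IFT56 (GB54167) was lower by -4.09 ± 0.23 (edgeR adjusted p = 8.6e-08). Among the 6 higher members, the axonemal dynein heavy chain 12 (GB43214) was at 96.3, 106 and 96.8 CPM in mouthparts and 31.3, 31.4 and 31.2 CPM in tentacles (1.67 ± 0.07, edgeR adjusted p = 1.7e-09).

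Of 51 tested genes of neurons and synapses 35 were lower and 11 higher (median -1.59). Complexin (GB50064), which controls vesicle release, was at 6.58, 7.86 and 8.61 CPM in mouthparts and 154, 172 and 149 CPM in tentacles (log2 difference -4.37 ± 0.11, edgeR adjusted p = 2.2e-11). The vesicular glutamate transporter named 2.1 (GB44987) was at 60.4, 57.7 and 57.8 CPM in mouthparts and between 963 and 1087 CPM in tentacles. A nicotinic acetylcholine receptor subunit stood on the mouthparts side, GB53427 at 7.11, 8.25 and 6.37 CPM against 1.52, 1.82 and 1.71 CPM in tentacles (2.11 ± 0.17, edgeR adjusted p = 4.6e-07).

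Ion channels followed the neurons. Of 58 tested voltage-gated and potassium channels 35 were lower and 13 higher (median -1.32). The voltage-gated sodium channel Para (GB42728), which carries the action potential, was lower by a log2 difference of -1.90 ± 0.09 (edgeR adjusted p = 5.8e-09), with means of 69.9 and 261 CPM. The potassium channel named subfamily K member 10 (GB51434) was at 4.27, 5.86 and 4.12 CPM in mouthparts and 206, 211 and 213 CPM in tentacles (-5.47 ± 0.12, edgeR adjusted p = 7.9e-12). The potassium channel named H2 (GB54127) was at 16.8, 16.9 and 12.8 CPM in mouthparts and 513, 554 and 498 CPM in tentacles.

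Channels of touch, heat and acid sensing did not share this direction. Of 9 tested TRP channels 5 were higher and 1 lower, with 2 higher and 3 lower after scaling by total counts. Painless (GB46068), needed for sensing harmful heat in Drosophila, was at 87.4, 87.6 and 79.5 CPM in mouthparts and 38.3, 37.4 and 37.8 CPM in tentacles (log2 difference 1.16 ± 0.07, edgeR adjusted p = 4.6e-08). Of 8 tested pickpocket channels 3 (37.5%) were higher and 3 (37.5%) lower, near the 32.3% and 35.5% of all tested genes. Pickpocket 28 (GB46186), a water-taste channel in Drosophila, was at 28.6, 30.2 and 24.97 CPM in mouthparts and 5.161, 4.604 and 4.999 CPM in tentacles (2.50 ± 0.12, edgeR adjusted p = 4.9e-09). Pickpocket 11 (GB53792) was lower by -1.90 ± 0.13 (edgeR adjusted p = 1.1e-07).

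Genes of biogenic amine signalling were called in both directions, with 11 (42.3%) higher and 11 (42.3%) lower of 26 tested. Over all tested genes these shares were 32.3% and 35.5%. Tyrosine hydroxylase (GB40967), which makes the DOPA used for dopamine and for hardening cuticle, was at 977, 942 and 912 CPM in mouthparts and 114, 120 and 130 CPM in tentacles (log2 difference 2.96 ± 0.08, edgeR adjusted p = 3.1e-11). Tryptophan hydroxylase (GB44366), the first step of serotonin synthesis, was at 13.7, 13.1 and 13.2 CPM in mouthparts and 1.63, 2.29 and 1.68 CPM in tentacles (2.83 ± 0.16, edgeR adjusted p = 2.2e-08). An enzyme named aromatic-L-amino-acid decarboxylase (GB55830) was at 2.73, 3.03 and 2.61 CPM in mouthparts and 201, 216 and 225 CPM in tentacles (-6.26 ± 0.10, edgeR adjusted p = 2.6e-12). The octopamine receptor beta-1R (GB43263) had 2 counts over the mouthparts group and 879 over the tentacles group, a ratio of 264 with an exact 95% interval of 72.9 to 2180 that covers counting error only. Both counts were in mouthparts replicate 3, so without it the mouthparts libraries had none. The serotonin receptor 5-ht7 (GB45559) had no count in mouthparts and 132 in tentacles, at least 26.4-fold higher.

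Neuropeptides and their receptors showed no common direction, with 9 (42.9%) higher and 8 (38.1%) lower of 21 tested. Over all tested genes these shares were 32.3% and 35.5%. Scaling by total counts gave 7 higher and 10 lower. The SIFamide receptor SIFR (GB47120) was at 3.08, 3.30 and 3.10 CPM in mouthparts and 15.8, 15.4 and 19.6 CPM in tentacles (log2 difference -2.42 ± 0.15, edgeR adjusted p = 3.6e-08). A capa receptor-like gene (GB55629) had 140 counts in mouthparts and none in tentacles, at least 77.7-fold higher.

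Glutamate transporters, which glia use to clear the transmitter, were split by gene among 9 tested glial genes. The excitatory amino acid transporter GB53002 was at 9.96, 11.7 and 9.79 CPM in mouthparts and 391, 377 and 433 CPM in tentacles (log2 difference -5.25 ± 0.10, edgeR adjusted p = 4e-12). Eaat-2 (GB49785) was also lower (-4.13 ± 0.14, edgeR adjusted p = 2.1e-10). GB46763, named from transporter 3, was at 164, 170 and 160 CPM in mouthparts and 29.1, 23.5 and 31.6 CPM in tentacles (2.55 ± 0.10, edgeR adjusted p = 1.3e-09).

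Single homeobox genes showed sharp contrasts between the tissues, while the list as a whole was called in both directions. Of 101 on the homeobox list, 66 were tested, with 29 (43.9%) higher and 24 (36.4%) lower in mouthparts. Over all tested genes these shares were 32.3% and 35.5%. By at least 2-fold, 22 were higher and 17 lower, where 13.3% and 18.6% of all tested genes were. With total counts the split was 23 higher and 27 lower. Of the called genes 15 were at least 4-fold higher and 8 at least 4-fold lower. The share of all tested genes at this limit was not counted.

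The Hox genes of the head were high in mouthparts. Proboscipedia (GB51302), which in Drosophila turns the labial appendage into a proboscis, was at 82.7, 88.6 and 82.1 CPM in mouthparts and 0.13, 0.281 and 0.118 CPM in tentacles (log2 difference 8.83 ± 0.17, edgeR adjusted p = 5.6e-12). Deformed (GB51299), which patterns the mandibular and maxillary segments in Drosophila, was at 193, 204 and 211 CPM in mouthparts and 8.48, 10.7 and 7.59 CPM in tentacles (4.50 ± 0.12, edgeR adjusted p = 4.4e-11). The gene named homeobox protein H55 (GB51295) was at 31.5, 34.4 and 32.2 CPM in mouthparts and 0.152, 0.13 and 0.118 CPM in tentacles (7.89 ± 0.17, edgeR adjusted p = 8.2e-12). The mouthparts libraries lay close together for all of them.

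The Hox genes of the thorax were at about 1 CPM in mouthparts. Antp (GB51292) was at 1.27, 1.30 and 1.47 CPM in mouthparts and 0.13, 0.0865 and 0.294 CPM in tentacles (log2 difference 3.03 ± 0.40, edgeR adjusted p = 3.4e-05). Ubx (GB51290) had 65 counts in mouthparts and none in tentacles, at least 36.1-fold higher. In the RefSeq gene table of the assembly Amel_HAv3.1 these 5 genes lie on linkage group 16 in the order Ubx, Antp, H55, Deformed and proboscipedia, with at most 1 protein-coding gene between neighbours. Levels of different genes are not compared here, since CPM is not corrected for length.

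Other mouthparts homeobox genes included regulators of the anterior head and of appendages. SIX3 (GB49751), a gene of the front of the head in many animals, was at 10.04, 11.55 and 10.49 CPM in mouthparts and 0.108, 0.216 and 0.118 CPM in tentacles (log2 difference 6.12 ± 0.23, edgeR adjusted p = 6.2e-10). Aristaless (GB42226), which patterns the tips of limbs in Drosophila, was higher by 2.07 ± 0.13 (edgeR adjusted p = 6.8e-08). The pair of models named SIX2, GB42026 and GB42027, share a best hit and may be pieces of a single gene. Nkx-2.4 (GB44663) was at 10.8, 10.3 and 7.71 CPM in mouthparts and had no count in tentacles, at least 406-fold higher. This difference was not seen with pear pollen. Scaled over 12 libraries, Nkx-2.4 was then at 0.146 CPM in mouthparts and 0.130 CPM in tentacles, from 16 and 13 counts.

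Outside the homeobox list used here, the paired-box gene gooseberry (GB54180), a segmentation gene in Drosophila, was at 135, 153 and 146 CPM in mouthparts and 1.15, 1.25 and 1.26 CPM in tentacles (log2 difference 6.89 ± 0.10, edgeR adjusted p = 2.6e-12). A gene with a DM domain (GB46747), the DNA-binding domain of doublesex, was at 75.2, 65.5 and 69.0 CPM in mouthparts and 0.499, 0.238 and 0.324 CPM in tentacles (7.604 ± 0.17, edgeR adjusted p = 1.2e-11).

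On the tentacles side, onecut (GB44974), a gene of differentiating neurons, was at 41.2, 39.5 and 46.6 CPM in tentacles and 1.65, 1.57 and 1.06 CPM in mouthparts (log2 difference -4.88 ± 0.16, edgeR adjusted p = 1.5e-10). GBX-2 (GB47515) was at 52.1, 57.8 and 58.8 CPM in tentacles and 7.08, 6.68 and 5.67 CPM in mouthparts (-3.12 ± 0.11, edgeR adjusted p = 3e-10). GB47490, whose best hit is named muscle-specific tinman, was at 39.7, 53.0 and 46.1 CPM in tentacles and 1.77, 1.42 and 1.06 CPM in mouthparts.

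**Figure D3:**
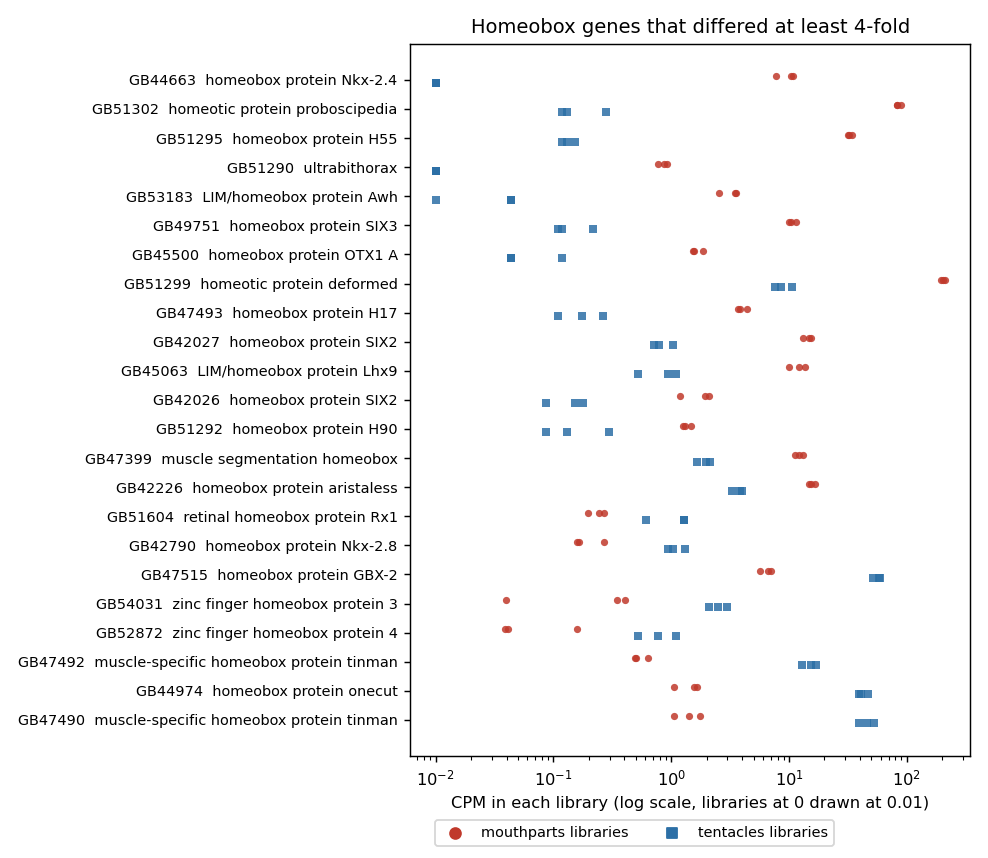
CPM in each library (log scale, libraries at 0 drawn at 0.01) of the homeobox genes called with a difference of at least 4-fold, without pollen, ordered by log2 difference. Circles are the 3 mouthparts libraries and squares the 3 tentacles libraries. The genes were chosen for their large difference, so groups that lie apart are no further result. Groups lay apart in 73.2% of all tested genes. Among the genes drawn, all from the homeobox list, proboscipedia, Deformed and H55 are the mouthparts genes with the most counts.

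Muscle genes were higher in mouthparts almost throughout. Of 39 tested 35 were higher, 31 of them at least 2-fold, 3 lower and 1 not called, with a median log2 difference of 2.85. They took 3.48 ± 0.12% of the counts in mouthparts and 0.692 ± 0.0185% in tentacles (SD, n = 3 each). Myosin regulatory light chain 2 (GB40240) was at 5836, 5438 and 6042 CPM in mouthparts and 259, 201 and 292 CPM in tentacles (4.52 ± 0.14, edgeR adjusted p = 1.9e-10). Troponin T (TpnT, GB51214), part of the calcium switch of the thin filament, was at 2541, 2616 and 2881 CPM in mouthparts and 220, 296 and 235 CPM in tentacles (3.42 ± 0.12, edgeR adjusted p = 4.1e-10). Troponin C (GB45174) and muscle-specific protein 20 (GB40253) were higher by log2 differences of 4.44 ± 0.11 and 3.93 ± 0.10.

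Cuticle proteins took 1.67 ± 0.0422% of the counts in mouthparts and 0.106 ± 0.0085% in tentacles (SD, n = 3 each), although members were called in both directions. Of 29 tested 14 were higher and 12 lower. The RR-1 cuticle protein GB46297 was at 13720, 13820 and 14410 CPM in mouthparts and 360, 442 and 402 CPM in tentacles (log2 difference 5.12 ± 0.11, edgeR adjusted p = 7.9e-12). Per length it reached 12500 ± 209 FPKM in mouthparts (SD, n = 3). GB46298, named from pupal cuticle protein 20-like, had 290 counts in mouthparts and none in tentacles, at least 161-fold higher. Cuticle protein 8 (GB48832) was lower, at 2.12, 2.55 and 1.88 CPM in mouthparts and 66.3, 111 and 73.2 CPM in tentacles (-5.25 ± 0.25, edgeR adjusted p = 2.2e-07). The gene named pro-resilin (GB45553), for a rubber-like cuticle protein, was lower by -3.19 ± 0.19 (edgeR adjusted p = 2.8e-08).

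Of 46 tested genes of chitin metabolism and peritrophins 27 were higher and 10 lower (median 0.75). GB43579, named from acidic mammalian chitinase and holding a peritrophin domain, was at 2130, 2362 and 1989 CPM in mouthparts and 28.6, 30.5 and 35.1 CPM in tentacles, a 68.9-fold difference (log2 6.11 ± 0.12, edgeR adjusted p = 4.8e-12). Chitin synthase 2 (GB55008), which polymerises chitin, was lower by a log2 difference of -1.54 ± 0.17 (edgeR adjusted p = 8.8e-06).

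Genes of the royal jelly protein family were mostly higher in mouthparts, and not absent from tentacles. The major royal jelly protein family took 8.43 ± 0.309% of mouthparts counts and 2.51 ± 0.506% of tentacle counts (SD, n = 3 each). Of 25 tested 22 were higher and 3 lower (median 2.07). GB55205, a family member named from yellow-f, was at 46490, 50510 and 46750 CPM in mouthparts and 7441, 12960 and 9891 CPM in tentacles (log2 difference 2.25 ± 0.18, edgeR adjusted p = 1.1e-06). Per length it had the highest level among called genes with a name in mouthparts, at 26680 ± 1263 FPKM (SD, n = 3), and 7112 ± 1851 FPKM in tentacles. GB45951, named from yellow-f2 in the same family, had a steeper difference, with 7639, 7627 and 7410 CPM in mouthparts and 158, 128 and 169 CPM in tentacles (5.64 ± 0.12, edgeR adjusted p = 9.4e-12). The family here includes genes named from yellow, and which of its members belong to the head glands was not tested. Members of the family are near copies of each other, so reads may have been split among them.

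Enzymes that turn nectar to honey were higher in 6 of 7 tested. Hbg3 (GB43247), an alpha-glucosidase that cleaves sucrose, was at 4614, 5108 and 7692 CPM in mouthparts and 127, 146 and 151 CPM in tentacles (log2 difference 5.36 ± 0.22, edgeR adjusted p = 6.2e-08). Alpha-amylase (GB49854), which cleaves starch, was at 422, 526 and 858 CPM in mouthparts and 3.77, 4.34 and 5.06 CPM in tentacles (7.11 ± 0.40, edgeR adjusted p = 4.9e-05). Glucose oxidase (GB44549), which makes gluconic acid and hydrogen peroxide, was at 3987, 4344 and 4748 CPM in mouthparts and 420, 709 and 600 CPM in tentacles (2.92 ± 0.18, edgeR adjusted p = 8.3e-07). Mouthparts replicate 3 was the highest library for all 3 enzymes. The other amylase, GB48667, was lower at 0.5, 0.314 and 0.653 CPM in mouthparts and 6.27, 8.19 and 6.88 CPM in tentacles.

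Several of these royal jelly family and enzyme genes were near 0 in both tissues with pear pollen, and others were not. Scaled over 12 libraries, GB55205 was at 49090 ± 2202 CPM in mouthparts without pollen and 4.335 ± 1.495 CPM with pear pollen (SD, n = 3 each). In tentacles it was at 10220 ± 2864 CPM without pollen and 1.19 ± 0.281 CPM with pear pollen. Glucose oxidase was at 4468 ± 408 CPM in mouthparts without pollen and 8.48 ± 0.467 CPM with pear pollen (SD, n = 3 each). Hbg3 was at 5952 ± 1724 CPM in mouthparts without pollen and 656 ± 12.4 CPM with pear pollen. In tentacles with pear pollen Hbg3 was at 106.5 CPM. GB43248, named maltase 1-like, was higher in mouthparts with pear pollen, at 486 ± 29.2 CPM against 244 ± 6.75 CPM without. The summed level of the royal jelly family was 10300 to 12000 CPM in mouthparts libraries with pear pollen and 92500 to 100000 CPM in those without. GB45951 made up most of what was left and was not lower itself, at 7744 ± 98 CPM in mouthparts without pollen and 9970 ± 861 CPM with pear pollen (SD, n = 3 each). The part of gland tissue in these values was not tested.

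An opsin was also low in mouthparts with pear pollen. Lop1 (GB50196), the long-wavelength opsin of the eyes, was at 39.7, 41.6 and 35.5 CPM in mouthparts and 1.71, 1.82 and 1.85 CPM in tentacles (log2 difference 4.44 ± 0.12, edgeR adjusted p = 4.4e-11). With pear pollen it was at 1.02 ± 0.154 CPM in mouthparts (SD, n = 3). Of the other opsins, Uvop (GB51369) was lower in mouthparts by -1.09 ± 0.15 (edgeR adjusted p = 5.6e-05). The blue opsin Blop (GB41643) was called higher, at 2, 3.26 and 3.3 CPM in mouthparts and 1.08, 1.77 and 2.15 CPM in tentacles, with overlapping groups (0.78 ± 0.28, edgeR adjusted p = 0.03). The call was lost with total counts (edgeR adjusted p = 0.19) and without mouthparts replicate 2 or 3 or tentacles replicate 1 (edgeR adjusted p = 0.098, 0.1 and 0.11). The 12 tested photoreceptor genes held 6 higher and 4 lower, which total counts turned to 4 and 6, with a summed level of 226 to 260 CPM in mouthparts libraries and at least 295 CPM in tentacles libraries. The part of eye tissue in these values was not tested.

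**Figure D4:**
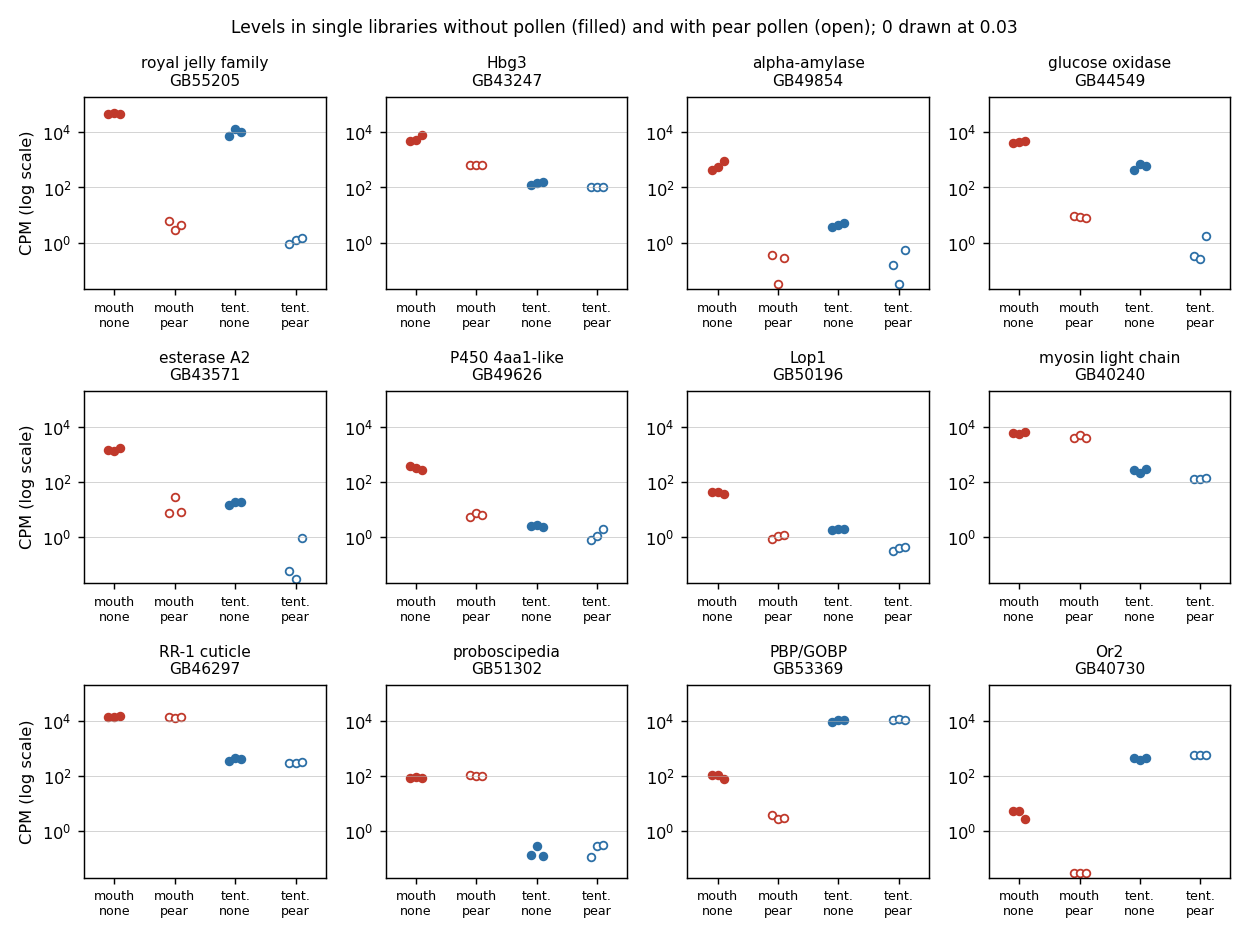
CPM in each library (vertical, log scale, values of 0 drawn at 0.03) of 12 genes in mouthparts and tentacles, without pollen (filled circles) and with pear pollen (open circles), scaled over the 12 libraries. The royal jelly family gene GB55205, alpha-amylase, glucose oxidase, esterase A2, the P450 named 4aa1-like and Lop1 are lower with pear pollen in both tissues. Myosin light chain, the RR-1 cuticle protein and proboscipedia keep a large tissue difference with pear pollen.

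Proteins of defence were higher in mouthparts. Of 12 tested immune effectors 10 were higher, 1 lower and 1 not called (median 3.04). Def1 (GB41428), an antibacterial defensin that is also secreted into royal jelly, was at 1297, 1414 and 1578 CPM in mouthparts and 95.3, 132 and 118 CPM in tentacles (log2 difference 3.63 ± 0.13, edgeR adjusted p = 7.6e-10). The apidaecin GB47546, a proline-rich antibacterial peptide, was at 93.5, 96.0 and 108 CPM in mouthparts and 2.65, 4.99 and 3.12 CPM in tentacles (4.78 ± 0.21, edgeR adjusted p = 6.5e-08). Phenoloxidase 2 (GB44996), which makes melanin, was at 208, 190 and 154 CPM in mouthparts and 8.002, 11.28 and 8.204 CPM in tentacles (4.32 ± 0.16, edgeR adjusted p = 1.4e-08). The marker of blood cells hemocytin (GB41850) was at 380, 421 and 385 CPM in mouthparts and 160, 162 and 175 CPM in tentacles. The part of blood cells in the immune genes was not tested.

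Fat body genes gave a mixed result, with 8 higher and 2 lower of 15 tested and 5 on each side with total counts. GB49544, with the lipoprotein domain found in vitellogenin, was at 1641, 1599 and 1522 CPM in mouthparts and 39.03, 62.36 and 50.37 CPM in tentacles (log2 difference 4.97 ± 0.17, edgeR adjusted p = 3.3e-09). GB52467, with the same domain, was lower by -0.60 ± 0.08 (edgeR adjusted p = 2.9e-05).

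Secreted proteases were mostly on the mouthparts side, with 32 of 58 tested serine proteases and serpins higher and 17 lower (27 and 20 with total counts). Venom serine protease 34 (GB44120) was at 646, 466 and 683 CPM in mouthparts and 1.17, 1.47 and 1.76 CPM in tentacles (log2 difference 8.69 ± 0.21, edgeR adjusted p = 9.7e-10). Of 25 tested venom-type secreted proteins 16 (64%) were higher in mouthparts and 5 (20%) lower, against 32.3% and 35.5% of all tested genes. Melittin (Melt, GB44112), the main venom peptide, was low in both tissues, at 1.22 CPM in mouthparts and 0.315 CPM in tentacles. It was called higher in mouthparts (1.96 ± 0.39, edgeR adjusted p = 0.00088). Acid phosphatase Acph-1 (GB41338), among the 5 lower, differed by -2.13 ± 0.08 (edgeR adjusted p = 3.6e-10).

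Fatty acid and hydrocarbon synthesis used different genes of a family in each tissue. Of 40 tested 25 were higher and 11 lower. Among the desaturases, which place double bonds in fatty acids, GB51238 was at 145, 142 and 151 CPM in mouthparts and 8.09, 6.72 and 7.38 CPM in tentacles (log2 difference 4.30 ± 0.09, edgeR adjusted p = 6.5e-12). GB51236, with the same name, was at 7.845, 8.999 and 8.692 CPM in mouthparts and 159, 130 and 171 CPM in tentacles (-4.17 ± 0.12, edgeR adjusted p = 7.2e-11). Among the fatty acyl-CoA reductases, which make alcohols, GB49327 was higher by 4.24 ± 0.08 and GB49323 lower by -6.51 ± 0.10 (edgeR adjusted p = 5.6e-12 and 2.6e-12).

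Genes of energy use were mostly higher in mouthparts. Of 102 tested genes of oxidative phosphorylation 72 were higher and 7 lower (median 0.81), and the median with total counts was 0.45. At least 2-fold, 35 of them were higher and 3 lower, where 13.3% and 18.6% of all tested genes were. Succinate dehydrogenase iron-sulfur subunit (GB53727) was at 399, 378 and 411 CPM in mouthparts and 104, 111 and 120 CPM in tentacles (log2 difference 1.83 ± 0.07, edgeR adjusted p = 9.4e-10). Of 89 tested genes of glycolysis and the citric acid cycle 58 were higher and 18 lower (median 0.63). At least 2-fold, 32 of them were higher and 8 lower. Phosphoenolpyruvate carboxykinase (GB51494), a step of sugar synthesis, was at 135, 131 and 134 CPM in mouthparts and 12.8, 13.9 and 15.1 CPM in tentacles (3.26 ± 0.08, edgeR adjusted p = 2.2e-11).

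Of 78 tested cytosolic ribosomal proteins 68 were higher and 0 lower with TMM scaling (median 0.71), and 48 higher and 0 lower with total counts. For 72 mitochondrial ribosomal proteins the 47 higher and 1 lower became 17 and 12 with total counts. Genes of protein folding and secretion in the endoplasmic reticulum, 67 higher and 38 lower of 157, became 23 higher and 83 lower, so their direction depends on the scaling. The same held for 27 heat shock proteins, 14 higher and 6 lower with TMM and 7 and 11 with total counts.

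Transporters of sugars and amino acids were even, 29 (37.7%) higher and 31 (40.3%) lower of 77 tested. These shares are near the 32.3% and 35.5% of all tested genes. The trehalose transporter GB40972, for the blood sugar of insects, was at 414, 431 and 406 CPM in mouthparts and 27.0, 24.7 and 29.6 CPM in tentacles (log2 difference 3.94 ± 0.08, edgeR adjusted p = 7.1e-12). Another, GB41742, was at 21.23, 18.7 and 17.02 CPM in mouthparts and 244, 211 and 270 CPM in tentacles (-3.67 ± 0.11, edgeR adjusted p = 1.7e-10).

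No model of the clock list was called among 5 tested in edgeR's quasi-likelihood test. The tested models were those of period and Cry2, and GB41002 and GB41003, both named protein timeless homolog. Other clock genes were not among them. At an unadjusted p under 0.05 edgeR called 1 higher and 0 lower, and DESeq2 called 1 higher and 0 lower. With total counts 0 were higher and 2 lower (median -0.29), so the absence of calls depends on the scaling. Period, in the models GB52078 and GB52077, had log2 differences of -0.11 ± 0.09 and 0.25 ± 0.11, and Cry2 (GB51095) one of 0.07 ± 0.10. GB52077 was called higher with DESeq2 (adjusted p = 0.044) and without mouthparts replicate 3 (edgeR adjusted p = 0.047), and GB52078 lower with total counts (edgeR adjusted p = 0.00043). In 13 tested genes tied to foraging 4 (30.8%) were higher and 4 (30.8%) lower, near the 32.3% and 35.5% of all tested genes. Malvolio (GB54097), a metal transporter linked to sugar response in honey bees, was at 246, 245 and 238 CPM in mouthparts and 80.5, 69.3 and 83.4 CPM in tentacles (log2 difference 1.65 ± 0.08, edgeR adjusted p = 4.2e-09). The models of the cGMP-dependent protein kinase, GB49906 and GB49908, were higher by 1.54 ± 0.09 and 0.62 ± 0.07.

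The tissue difference without pollen was tested against that with pear pollen in 1 fit of 12 libraries. It differed in 1587 of 13226 tested genes (12%), with a higher mouthparts minus tentacles value without pollen in 891 (6.74%) and a lower one in 696 (5.26%). Scaling by total counts changed this split to 519 and 2148. Leaving out tentacles replicate 2 with pear pollen gave 1034 genes. Each other single library left out gave between 1079 and 1882. The juvenile hormone binding proteins GB42557 and GB48492 had a larger difference without pollen, by a log2 interaction of 4.35 ± 0.12 and 4.38 ± 0.18 (edgeR adjusted p = 2.8e-11 and 1.1e-09). GB42557 was at 192, 183 and 183 CPM in mouthparts without pollen and 13.8, 11.6 and 13.1 CPM with pear pollen, while tentacles held 13.1 to 16.2 CPM without pollen and 19.8 to 20.8 CPM with it. With pear pollen every mouthparts library lay below every tentacles library for this gene.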

How the data were processed

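Read counts and FPKM per gene and library were taken from 1 table deposited by the authors. The counts deposited by the authors are raw and not normalized. The FPKM values deposited by the authors are per length and per 1e6 fragments, with lengths and totals not stated. Reads were aligned with HISAT2, per the submitters' processing notes. The sources used here do not give its version, the genome build, the counting program or the use of strand, so reads shared by copies, overlapping or antisense genes are uncertain. Each library was made from 1.3 ug of total RNA, per the labels' protocols.

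Genes were kept by edgeR's filterByExpr, scaled by TMM and tested by edgeR 4.0.16 quasi-likelihood with Benjamini-Hochberg adjustment over 12749 genes, in R 4.3.3. The tissue difference was set against that with pear pollen as an interaction over 12 libraries. Totals of 27.8 to 41.4 M counts leave counting error small beside the spread for all but genes of few counts, and intervals and floors (3 counts over a group) cover counting error only. Alternatives were DESeq2 1.42.0, its size factors, total counts, limma 3.58.1 on log2(FPKM + 1) and log2(FPKM + 0.1), other filters, the royal jelly family left out, all 18 libraries, a replicate block and each library left out. The fit was also run on simulated counts in which few genes were changed. That run does not check the scaling where most genes differ, as they do here.

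The members, gene lists and the rule for named genes were chosen with earlier results of these data known. Named were called genes with the largest difference or level, up to 3 members per list and direction, all homeobox genes of 4-fold or more, and members alike in both tissues. Those named for the largest difference had to reach 50 CPM in the higher tissue and have groups that did not overlap. Names are best hits in the deposited annotation, or the Pfam family where the hit misleads, and symbols and order come from RefSeq genes of Amel_HAv3.1. Replicate numbers are not stated to pair the samples, and the main fit did not pair them. Libraries with the same number deviated together with correlations of 0.123, 0.043 and -0.010. These values cannot show whether such libraries came from the same bees.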

Additional observations from a re-analysis of the deposited data

Results flagged for a closer look

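In the 10 named genes listed here the difference between mouthparts and tentacles without pollen differed from that with pear pollen. The test was the interaction term of edgeR's quasi-likelihood test over 12 libraries with Benjamini-Hochberg adjustment. These genes have the largest absolute interactions among the named genes that passed, so 10 is a limit and not a count of all that differed. The adjusted p was 2.5e-06 for Nkx-2.4 (GB44663), 3.5e-06 for Or2 (GB40730), 1.3e-05 and 3.6e-06 for the P450s GB49877 and GB55257, and 1.2e-05 for the P450 GB49626. It was 7.8e-10 for the odorant binding protein GB53369, 1.1e-09 and 2.8e-11 for the juvenile hormone binding proteins GB48492 and GB42557, 0.044 for alpha-amylase (GB49854) and 0.03 for the odorant receptor GB52404. GB49877 was at 14.8, 13.5 and 14.8 CPM in mouthparts without pollen, and GB55257 at 20.6, 18.6 and 20.8 CPM. The 2 weakest results, those of GB49854 and GB52404, were lost under several of the alternatives.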

How the results depend on the processing

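Scaling and unit moved the balance of directions more than the number of calls. Of the 4121 genes higher and 4527 lower in mouthparts, scaling by total counts gave 2421 and 6864, limma on log2(FPKM + 0.1) gave 2474 higher and limma on log2(FPKM + 1) gave 2499 higher. The genes at least 2-fold higher numbered 946 with log2(FPKM + 1), and at least 5 CPM in 3 libraries left 1117 higher and 1420 lower, from fewer genes tested. Leaving out 1 library gave 7989 to 8796 calls, and DESeq2 gave 8414. For the interaction, total counts gave 2667 genes (519 with a higher and 2148 with a lower mouthparts minus tentacles value without pollen), log2(FPKM + 0.1) gave 524 and 1617, and log2(FPKM + 1) gave 1664 lower. Leaving out 1 library gave 1034 (without tentacles replicate 2 with pear pollen) to 1882 genes, of which 414 to 806 were lower. Of 129 named genes 10 had a changed call under at least 1 alternative. With total counts and with both FPKM fits, GB40382, GB42800 and GB52078 gained a call as lower. GB52077 gained one as higher with DESeq2, its size factors, all 18 libraries and without mouthparts replicate 1 or 3. The calls of GB43330 and GB47541 were lost in both FPKM fits and in 5 of 6 leave-outs each, the call of Blop (GB41643) was lost with total counts, both FPKM fits, all 18 libraries and 3 of 6 leave-outs, and GB49790 gained a call without tentacles replicate 3. GB46225 became lower in mouthparts at -0.3227 and -0.3226 with FPKM and -0.3418 with total counts, and Cry2 (GB51095) at -0.2368 with log2(FPKM + 1) and -0.2898 with total counts. The cause was not tested.

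Fits with a replicate block gave 8409 calls for the tissues and 1386 for the interaction, although the numbers are not stated to pair the samples. Genes with few counts are limited by depth.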

Other observations

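Single libraries stood apart by 10-fold or more in 3 genes of at least 50 CPM, chosen after their values were seen. GB43330 was at 68.2, 3188 and 3252 CPM in mouthparts and 22.3, 18.4 and 72.5 CPM in tentacles. GB47541 was at 0.731, 92.3 and 107.5 CPM in mouthparts and at most 0.324 CPM in tentacles. GB49790 was at 49.1, 50.7 and 0 CPM in tentacles and 68.1, 75.9 and 76.6 CPM in mouthparts. The files give these genes no name used here.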
